A study of Caenorhabditis elegans with 2 samples.

Results

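The genes described here are 41 protein-coding genes that Caenorhabditis elegans mothers use to provision the egg and to start the embryo. They were chosen by name, with earlier results of these data known, out of 19973 protein-coding genes annotated on chromosomes I to V and X. They comprise maternal RNA-binding regulators of cell fate, germline translation regulators, germ granule components, and egg activation and oocyte surface genes. With them are the fate genes apx-1, glp-1 and skn-1 and the adaptor gene zif-1. All 41 were found in the Ensembl annotation of assembly WBcel235, which has ce11 coordinates. The data were chromatin immunoprecipitation with sequencing (ChIP-seq), which recovers DNA crosslinked to a chosen protein, and the protein was F13C5.2, a bromodomain protein. The embryos came from strain OP605, whose genotype is unc-119(tm4063) III; wgIs605. The transgene wgIs605 expresses F13C5.2 with a C-terminal GFP-FLAG tag, and the antibody recognized GFP. Embryos were early, of mixed sex and collected whole, 1 hour after synchronization by egg bleaching. There was 1 group with 2 biological replicates, numbered 2 and 3. The genotype names no allele of F13C5.2 itself, and the sources used here do not name the promoter that drives the transgene.

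Most messenger RNAs of these genes are made in the mother's germline and loaded into the oocyte. After fertilization the embryo divides before most of its own genes are read, so RNA-binding proteins decide where and when the stored messages are translated. CCCH zinc finger proteins such as PIE-1 and MEX-5 sort to opposite ends of the dividing embryo, and germ granules (P granules) pass with the germline lineage. Egg activation is the change from oocyte to embryo, in which the eggshell is built and the kinase MBK-2 marks oocyte proteins for removal.

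A gene was called occupied when a peak of the authors' optimal list had its summit in the promoter window, the stretch between 1000 bp before and 200 bp after a 5′ end of the gene. That list, thresholded by the irreproducible discovery rate (IDR), held 1850 peaks with signal scores of at least 77.9 and a median of 107. These were the 1850 highest-scoring of 30000 peaks called on both replicates together, here the pooled list. Each replicate also had its own list of 30000 peaks. The read depth behind the lists is unknown, and the authors' score is on a scale that the sources used here do not state. Only ranks are therefore compared between lists. Scores are printed for each list but are not to be compared from list to list.

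Of the 41 genes, 6 (14.6%) were occupied, against 8.51% of all protein-coding genes. They were atx-2, egg-5, mex-1, cgh-1, spn-4 and mbk-2. Each summit was then given only to the protein-coding gene with the nearest 5′ end. That left 3 of the 41 occupied (7.32%), atx-2, egg-5 and mbk-2, against 6.11% of all protein-coding genes. Non-coding genes were not compared in this step, and the stronger egg-5 summit lay inside such genes. The best summit of each of the 6 had a counterpart within 100 bp in each replicate's own list. Taking the top 1850 peaks of a replicate list in place of the IDR list, 6 genes were occupied in replicate 2 and 5 in replicate 3. Non-specific recovery at these sites was not tested, since peaks of an untagged strain were not analysed here.

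**Figure D1:**
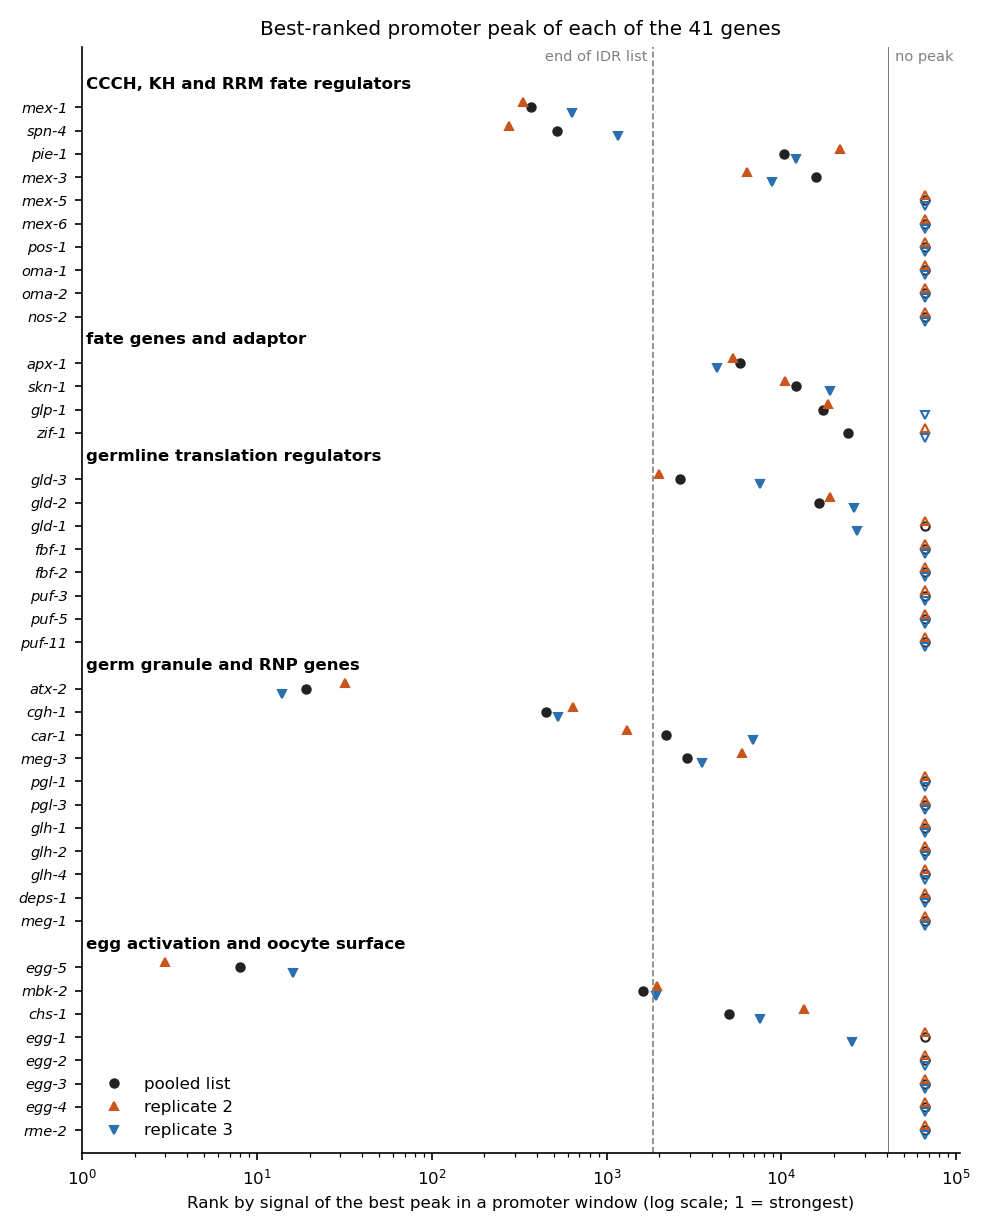
Rank by signal score (log scale, 1 is the strongest peak) of the best peak in a promoter window of each of the 41 genes, in the pooled list (black circles), replicate 2 (orange triangles) and replicate 3 (blue triangles), with open symbols where a list has no peak. The 6 genes left of the dashed line, the end of the 1850-peak IDR list, spread from rank 8 to rank 1627, and 24 genes have no pooled peak.

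Among the germ granule and ribonucleoprotein genes, atx-2 had the strongest peak and cgh-1 the other IDR summit. That is 2 of 11 genes (18.2%), against 8.51% of all protein-coding genes. The classes are small, and their counts set no class apart. atx-2 encodes the ataxin-2 homolog, an RNA-associated protein (WBGene00000231, chromosome III, 10461389 to 10468051, plus strand). Its summit, at 10461322, lay 67 bp before the outermost of 4 annotated 5′ ends. The peak ranked 19 in the IDR list with a score of 361. It ranked 32 in replicate 2 (score 155) and 14 in replicate 3 (score 207), so both replicates placed it near the top. It lay in the 837 bp gap between atx-2 and the divergent gene ecps-1, which encodes a proteasome-associated protein. A second peak, at -649 bp from atx-2 and at -189 bp from ecps-1, differed between the replicates. It ranked 358 in replicate 2 (score 76.9), had no summit within 100 bp in replicate 3, and ranked 4495 in the pooled list.

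cgh-1 encodes a DEAD-box RNA helicase of germ granules and processing bodies, related to human DDX6 (WBGene00000479, chromosome III, 7495320 to 7497832, minus strand). Its summit was at 7498630, which is -798 bp from the 5′ end. The peak ranked 452 in the IDR list (score 141), 644 in replicate 2 (score 62.5) and 530 in replicate 3 (score 74.2). It lay in the 915 bp gap between cgh-1 and the end of C07H6.9, a serpentine receptor gene on the same strand. No other protein-coding gene had a promoter window over it, although the 5′ end of C07H6.9, at 708 bp, was nearer than that of cgh-1. A further IDR summit, at -1833 bp and thus outside the window, lay at -73 bp from sap-140, a spliceosome-associated protein gene (rank 898, score 109).

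Among the CCCH, KH and RRM fate regulators and the Nanos gene nos-2, 2 of 10 genes (20%) were occupied, mex-1 and spn-4. The share of all protein-coding genes was 8.51%. At both occupied genes a divergent neighbour had the nearer 5′ end. mex-1 encodes a CCCH zinc finger protein needed for germline and somatic fates (WBGene00003228, chromosome II, 11968637 to 11972330, plus strand). Its summit, at 11967720, was -917 bp from the outermost 5′ end of mex-1 and -176 bp from that of W03C9.5, across a gap of 1092 bp. The peak ranked 372 in the IDR list (score 151), 331 in replicate 2 (score 79.1) and 633 in replicate 3 (score 69.9). spn-4 encodes an RRM protein that controls translation of maternal messages (WBGene00004984, chromosome V, 6783187 to 6784903, minus strand). Its summit, at 6785306, was -403 bp from spn-4 and -145 bp from spe-39, a gene named for its role in spermatogenesis, across a gap of 547 bp. The peak ranked 519 in the IDR list (score 134), 275 in replicate 2 (score 83.6) and 1159 in replicate 3 (score 54.6). The mex-1 summit also lay in a promoter window of rab-7. The lists do not show to which of these genes either peak belongs.

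The sequences at the summits of the occupied genes other than egg-5 are shown because they can be compared directly. Each is 101 bases centred on the summit, on the plus strand of WBcel235 from RefSeq. The egg-5 windows are not shown, and they held none of the motifs searched below. Capitals mark GCGCACTT in the first pair and GAGAGA on its reverse strand (TCTCTC) in mbk-2, whose peak is described further on. No capitals means no match in the bases shown.
atx-2, chrIII:10461272-10461372: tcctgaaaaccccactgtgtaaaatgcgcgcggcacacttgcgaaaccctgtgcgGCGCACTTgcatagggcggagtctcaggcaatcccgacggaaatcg
mex-1, chrII:11967670-11967770: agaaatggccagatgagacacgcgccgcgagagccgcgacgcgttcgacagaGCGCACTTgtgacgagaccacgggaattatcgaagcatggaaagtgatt
mbk-2, chrIV:13031025-13031125: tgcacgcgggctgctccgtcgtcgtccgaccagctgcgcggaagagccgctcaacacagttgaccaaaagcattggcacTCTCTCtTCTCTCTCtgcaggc
spn-4, chrV:6785256-6785356: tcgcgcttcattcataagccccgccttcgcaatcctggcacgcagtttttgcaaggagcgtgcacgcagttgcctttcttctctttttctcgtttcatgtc
cgh-1, chrIII:7498580-7498680: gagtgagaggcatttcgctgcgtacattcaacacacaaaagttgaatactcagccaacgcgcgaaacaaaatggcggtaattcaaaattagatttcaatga

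The windows of atx-2, mex-1 and mbk-2 were the richest in G and C. From 100 bp before to 100 bp after the summit they held 53.2%, 51.7% and 50.7% GC, the egg-5 summits 46.8% and 30.8%, cgh-1 41.3% and spn-4 38.3%, against a median of 44.8% over all 1850 IDR windows. Both strands were searched for 4 motifs, and a window counted once however many matches it held, overlapping ones included. GAGAGA was found in 2 of the 7 windows, those of atx-2 (outside the bases shown) and mbk-2, against 39.7% of all IDR windows and 15.7% of promoter stretches taken from 250 to 50 bp before the outermost 5′ end of every protein-coding gene. CTGCGTC and the tRNA B-box-like GTTCGANNC were in none of the 7, against 15% and 9.19% of IDR windows and 3.35% and 0.976% of promoters. GCGCACTT, chosen after the windows of atx-2 and mex-1 were seen to share it, was in no other of the 7 windows. It was in 5.41% of IDR windows and 0.916% of promoters. In those promoter stretches the median GC was 37.8% for the 6 occupied genes and 34.8% for the other 35, against 33.8% for all protein-coding genes.

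**Figure D2:**
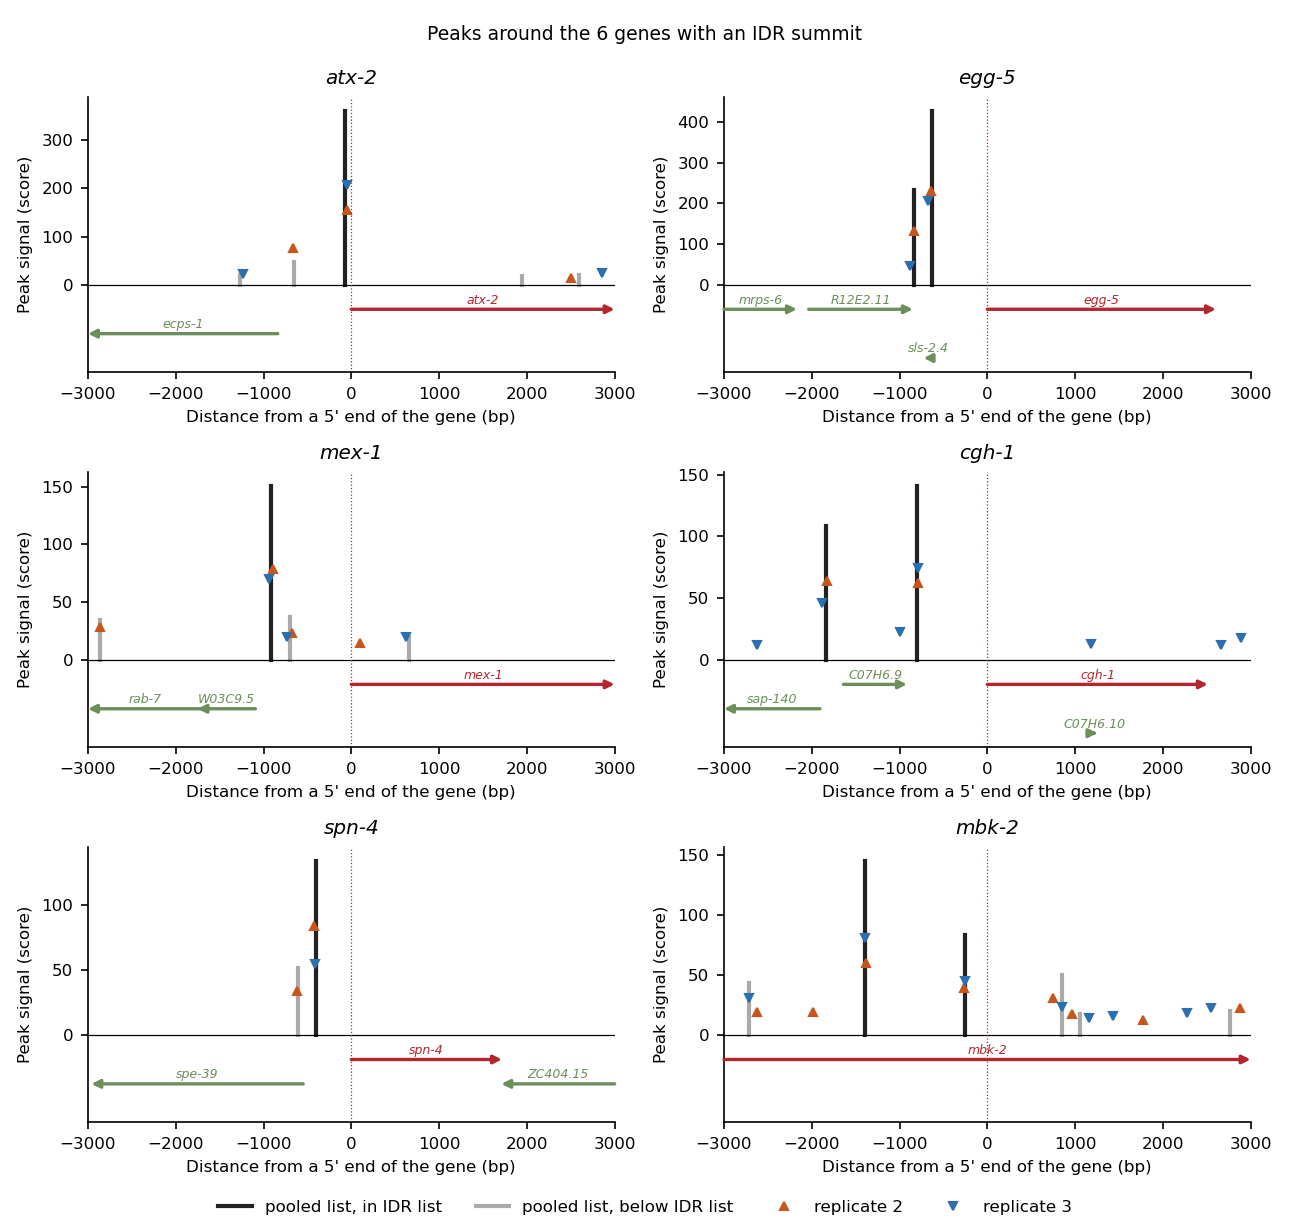
Peak signal score against distance (bp, negative is upstream) for the 6 occupied genes. Distance is from the gene's own 5′ end that is nearest to its best-ranked window summit. Pooled peaks are bars (black in the IDR list, grey below it), replicate peaks are triangles, and genes are arrows in their direction of transcription. The atx-2 summit sits at -67 bp, those of mex-1 and spn-4 in gaps before a divergent gene, and that of egg-5 on sls-2.4. Scores of the 3 lists share an axis but are on scales of their own, so heights are not to be compared between lists.

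Among the egg activation and oocyte surface genes, egg-5 and mbk-2 were occupied, 2 of 8 (25%), against 8.51% of all protein-coding genes. egg-5 encodes an inactive tyrosine phosphatase that holds MBK-2 at the cortex until meiosis is under way (WBGene00020035, chromosome I, 4168984 to 4171589, minus strand), and it was the single gene of the 41 with 2 IDR summits in its window. The stronger, at 4172224 and -635 bp from the 5′ end, ranked 8 in the IDR list (score 427), 3 in replicate 2 (score 231) and 16 in replicate 3 (score 205). It lay inside sls-2.4, an RNA gene annotated as a small nuclear RNA and named as a spliced leader gene, which is read on the opposite strand within the 848 bp gap between egg-5 and R12E2.11, and inside R12E2.18, an overlapping non-coding RNA gene on the strand of egg-5. The other summit, at 4172427, ranked 107 in the IDR list (score 232) and 73 in replicate 2 (score 131), but 1763 in replicate 3 (score 46), just inside the top 1850 peaks there. Both summits lay in the same called interval, 4171953 to 4172535 (583 bp), so they are not separate regions. The promoter of egg-5 cannot be told apart from sls-2.4 and R12E2.18 by these summits. With the summits closest to small RNA genes (500 bp or less) left out, egg-5 was not occupied.

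The sequence under the stronger egg-5 summit is partly repeated in the genome. Of its 166 stretches of 36 bases, 148 (89.2%) occur once, and the rest occur up to 4 times. All 166 occur once at the second egg-5 summit and at each of the summits of the other 5 occupied genes. The sources used here do not say how reads that match several copies were placed. egg-4, the close relative that acts together with egg-5, had no peak in its window in any of the 3 lists.

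mbk-2 encodes the DYRK-family kinase that phosphorylates oocyte proteins in the change from oocyte to embryo (WBGene00003150, chromosome IV, 13009158 to 13035961, plus strand). Its summit, at 13031075, lay in an intron, at -259 bp from the internal 5′ end at 13031334. The peak ranked 1627 in the IDR list (score 83.1), 1934 in replicate 2 (score 39.2) and 1907 in replicate 3 (score 44.6), so it fell just outside the top 1850 of both replicate lists. A stronger IDR summit, at 13029937 in the same gene, lay -1397 bp from that 5′ end and so outside the window (rank 418, score 145, rank 714 in replicate 2 and 426 in replicate 3). mbk-2 has 6 annotated 5′ ends whose windows cover 6080 bp, against a median of 1201 bp for all protein-coding genes, and 6 pooled summits lay in them. With the outermost 5′ end alone mbk-2 was not occupied. Genes with more 5′ ends were occupied more often in general: 3 of 13 listed genes with several 5′ ends and 3 of 28 with 1, against 12.4% and 7.12% of all protein-coding genes of each kind.

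The members nearest to the end of the IDR list were mbk-2 inside it and car-1 outside it. car-1 encodes an Sm-like RNA-binding protein of germ granules. Its peak, at -429 bp, ranked 2195 in the pooled list with a score of 71.4, below the lowest IDR score of 77.9. It ranked 1302 in replicate 2 (score 47.1) and 6919 in replicate 3 (score 25.5), and so stood apart between the replicates. gld-3, a Bicaudal-C homolog that works with the poly(A) polymerase GLD-2, followed at rank 2642 (score 64.7), with ranks 1986 in replicate 2 and 7534 in replicate 3. Its summit, at -511 bp, was only 100 bp before the divergent gene T07F8.4. meg-3, which encodes a disordered protein that stabilizes P granules in the embryo, ranked 2896 (score 61.3), 5974 in replicate 2 and 3500 in replicate 3, with its summit at -140 bp.

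**Figure D3:**
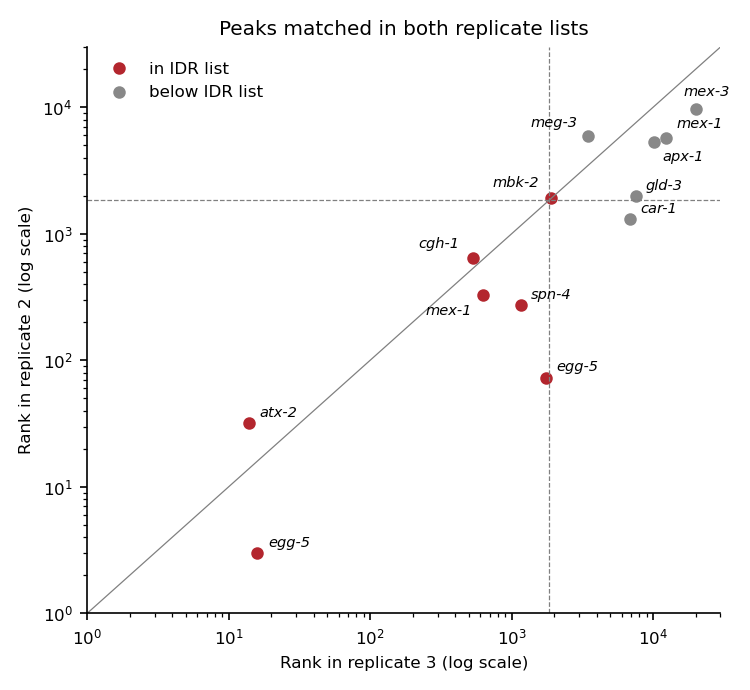
Rank in replicate 2 against rank in replicate 3 (both log scales) of every peak at the 41 genes that had a summit within 100 bp in both replicate lists, with IDR peaks in red, other pooled peaks in grey, equal ranks on the solid line and rank 1850 on the dashed lines. mbk-2 (1934 and 1907) and cgh-1 (644 and 530) lie closest to equal ranks. The second egg-5 summit (73 and 1763), car-1 (1302 and 6919) and gld-3 (1986 and 7534) rank higher in replicate 2.

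In all, 11 of the 41 genes (26.8%) had a pooled peak below the IDR list and none in it, against 30.7% of all protein-coding genes. For 5 of the 11 (car-1, gld-3, meg-3, apx-1 and mex-3) the best peak had a counterpart in each of the replicates. The same share over all protein-coding genes with such a peak was not taken, so this count sets the 11 apart in no way. The 4 fate genes and adaptor (apx-1, glp-1, skn-1 and zif-1) were all among the 11. apx-1, the Delta-like ligand of the early embryo, had its best peak at rank 5769 (score 42.7), with ranks 5315 in replicate 2 and 10190 in replicate 3. Its receptor gene, the Notch homolog glp-1, ranked 17337. The gene of the transcription factor SKN-1, which specifies endoderm and mesoderm precursors, ranked 12107. zif-1, the adaptor that directs CCCH proteins to degradation in somatic cells, ranked 24012 with no counterpart in either replicate, and its summit was nearer to F59B2.15. Among the RNA-binding genes, pie-1, whose product keeps germline blastomeres silent, ranked 10293, and mex-3, a KH-domain repressor of translation, 15767. gld-2 ranked 16465, also with no counterpart within 100 bp in either replicate, and its summit lay in a coding exon of gld-2 near an internal 5′ end. The windows of gld-2, skn-1 and mex-3 were wide (5949, 4192 and 3702 bp), against a median of 1201 bp for all protein-coding genes. The chitin synthase gene chs-1 ranked 5004 with a summit at -990 bp, inside a coding exon of its neighbour T25G3.1. Scores of these peaks lay between 20.6 and 45.9, against a median of 27.3 over the pooled list.

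The pie-1 and glp-1 genes had an IDR summit nearby but outside the windows. The summit past the end of pie-1 (rank 419, score 145) lay 690 bp downstream of the gene and at -256 bp from snr-6, a spliceosomal Sm protein gene. The summit upstream of glp-1 (rank 1557, score 84.9), at -2561 bp, lay at -305 bp from mrpl-44, a mitochondrial ribosomal protein gene. No other gene of the 35 without an occupied window had an IDR summit within 3 kb of a 5′ end or inside the gene.

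No pooled peak lay in any window of 24 of the 41 genes (58.5%), close to the 60.8% of all protein-coding genes without one, so the names that follow complete the account and set no group apart. Of the 10 fate regulators 6 had none, the CCCH genes mex-5, mex-6, pos-1, oma-1 and oma-2, with nos-2. Among translation regulators of the germline they were the STAR-domain repressor gene gld-1 and the PUF-family genes fbf-1, fbf-2, puf-3, puf-5 and puf-11. The core P granule genes pgl-1, pgl-3, glh-1, glh-2, glh-4 and deps-1, with meg-1, had none. The egg surface and activation genes egg-1, egg-2, egg-3 and egg-4 and the yolk receptor gene rme-2 had none either. For 22 of the 24 (53.7% of the 41) there was also no peak in the windows in either replicate list, against 46.6% of all protein-coding genes. The exceptions were gld-1 (rank 27107) and egg-1 (rank 25494), each with a low-ranked peak in replicate 3. Of 8 pairs of closely related genes in the set, 6 had no peak for either gene in any of the 3 lists (mex-5 and mex-6, oma-1 and oma-2, fbf-1 and fbf-2, puf-3 and puf-11, pgl-1 and pgl-3, glh-1 and glh-2), a count with no background of its own. A missing entry says that no peak reached a list of 30000, not that the protein was absent.

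With windows from 1000 bp upstream, the share of the 41 genes was above that of all protein-coding genes at high ranks and near it over the whole lists. With windows from 500 bp upstream the IDR list gave 3 of the 41 (7.32%), against 7.01% of all protein-coding genes. Peaks of pooled rank 500 or better lay at 4 of the 41 genes (9.76%), against 2.29% of all protein-coding genes. These 4 were egg-5, atx-2, mex-1 and cgh-1, with summits at -635, -67, -917 and -798 bp. Only the atx-2 summit was within 500 bp, and mex-1 and cgh-1 had a neighbour's 5′ end nearer. The share of all genes at this rank was not taken with the shorter window. At rank 5000 or better the counts were 9 of 41 (22%), against 16.8%. Any pooled summit was found at 17 of 41 (41.5%), against 39.2% of all protein-coding genes. In replicate 2 the share at rank 500 or better was 9.76%, against 2.52% of all protein-coding genes, and in replicate 3 it was 4.88%, against 2.05%. The 41 genes were chosen by name with earlier results of these data known, and each gene moves a share by several points. These shares are a description with no test.

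**Figure D4:**
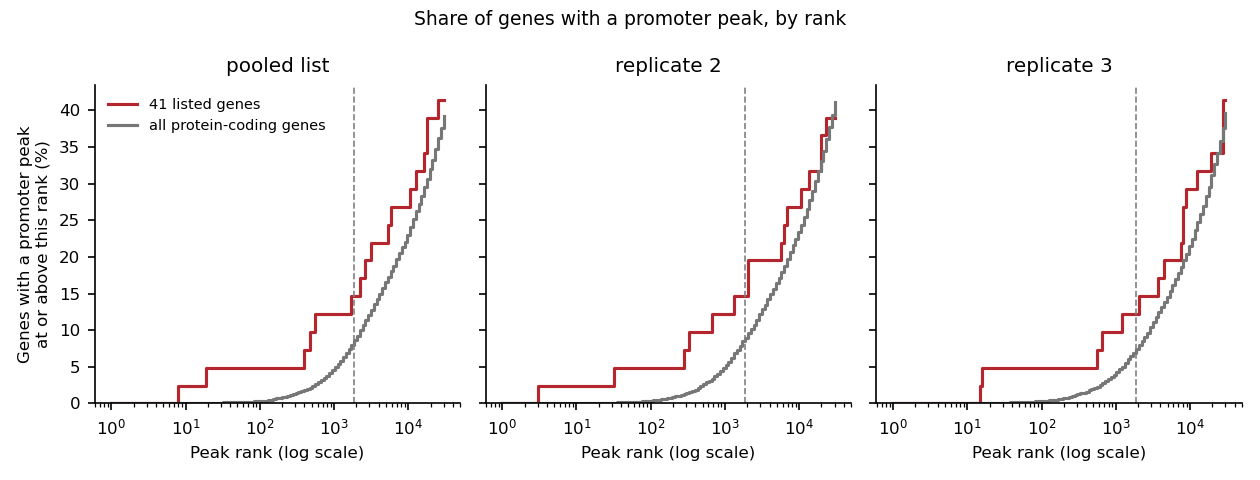
Percent of genes with a promoter peak at or above each rank (log scale), for the 41 genes in red and all 19973 protein-coding genes in grey, in the pooled list and in each replicate list. The dashed line is rank 1850, where the pooled list has 14.6% of the 41 genes and 8.51% of all genes, and at rank 30000 it has 41.5% and 39.2%.

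The 41 genes lay somewhat closer to their upstream neighbours than other genes did. The median gap from the outermost 5′ end to the next protein-coding gene was 610 bp, against 940 bp for all protein-coding genes, and it was under 1000 bp for 28 (68.3%), against 51.8%. A gene on the same strand ended within 500 bp upstream of 9 of the 41 (22%), against 20.5% of all, an arrangement found in operons, although operons were not annotated in the files used here. None of the 6 occupied genes was among those 9. With 20.5% of all genes so placed, 6 genes are too few for that count to set them apart. The share among all occupied protein-coding genes was not taken. The median distance from a 5′ end to the nearest IDR summit was 14781 bp for the 41, against 19778 bp for all protein-coding genes.

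Of 69 further germline and eggshell genes on 3 lists, 9 (13%) were occupied, against 8.51% of all protein-coding genes. Germ granule, small RNA and processing body genes had 5 of 21, namely ifet-1 (rank 142), ife-3 (920), dcap-2 (1226), lsm-1 (1303) and patr-1 (1525). ifet-1 encodes a translational repressor that binds CAR-1 and CGH-1, and its summit was nearest to rps-1, as that of lsm-1 was to rps-9, both ribosomal protein genes. ife-3 encodes a cap-binding eIF4E, and its summit, -985 bp from its 5′ end and -74 bp from B0348.10, had no match in replicate 3. dcap-2, the decapping enzyme gene, had the nearest 5′ end itself, while the summit at patr-1, a decapping activator gene, was nearest to dna-2. Germline RNA-binding genes had 4 of 24 occupied, larp-1 (121), puf-9 (186), mog-5 (310) and mog-4 (532), of which all but larp-1, whose summit was nearer to wip-1, had the nearest 5′ end themselves. The list of eggshell, oocyte meiosis and maternal clearance genes had 0 of 24. With each summit given only to the gene with the nearest 5′ end, 4 of the 69 were occupied, against 6.11% of all protein-coding genes.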

How the data were processed

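The deposited peak lists on build ce11 were used, 1 per replicate, 1 called on both replicates together, and the optimal IDR list. The sources used here name neither the peak caller, the aligner nor the IDR threshold. The deposited signal score ranked peaks within a list. The deposited −log10 q-value was not used for ranking, since 1692 pooled peaks tie at its maximum of 3.53. Summits were set against Ensembl release 115 and the RefSeq sequence of WBcel235, the assembly of ce11. Replicate peaks were matched by summits within 100 bp. The ce10 lists were not used. Of the further genes listed, 69 of 72 were found by name. Members and lists were chosen with earlier results of these data known, so no test was made. Named were every occupied gene, genes below the IDR list with counterparts in each replicate, the 3 best-ranked without an IDR summit, and the others by role. Window placement was tested on simulated data. Python 3.11.15, numpy 2.4.6, pandas 2.3.3 and matplotlib 3.10.9 were used.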

Additional observations from a re-analysis of the deposited data

How the results depend on the processing

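The count of 6 occupied genes depended most on distance and neighbours. It was 3 with windows from 500 bp upstream (atx-2, mbk-2 and spn-4), 7.32% of the 41, against 7.01% of all genes. With nearest protein-coding 5′ ends only it was also 3 (atx-2, egg-5 and mbk-2), 7.32%, against 6.11% of all genes. Keeping only the stronger 50% of the IDR list, 5 genes were occupied, without mbk-2, and the share of all genes fell to 4.46%. It stayed at 6 (14.6%) with windows from 2000 bp upstream, against 11.1% of all genes, and with any overlap of the peak, against 9.26%. It was 5 (12.2%) with the outermost 5′ end, against 7.97%, and without summits near small RNA genes, against 7.99%. Without replicate 2 it was 5, without mbk-2, against 7.36% of all genes, and without replicate 3 it was 6, with car-1 in place of mbk-2, against 8.9%. Genes with any summit stayed near the share of all genes: 13 (31.7%, against 31.5%) from 500 bp, 20 (48.8%, against 48.1%) from 2000 bp, 14 (34.1%, against 36.3%) with the outermost 5′ end, 17 (41.5%, against 39.6%) without replicate 2 and 16 (39%, against 41.1%) without replicate 3. A median best rank could not be given, since 24 of 41 genes have no pooled peak. The best summits of the 6 genes differed most between replicates at mex-1 (-895 bp in replicate 2 and -942 bp in replicate 3), and from the pooled summit at egg-5 (-670 bp in replicate 3, against -635 bp). The split by number of 5′ ends and the match in both replicate lists, which kept 6 of 6, were added after seeing the data. That match used the replicates behind the IDR list and so is not independent of it. No paired analysis was possible because there was 1 group. Depth is unknown, and how it sets the ranks was not tested.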
